A study of Mus musculus with 12 samples.

Results

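The B7 ligands and their functional relatives were described as 10 genes, namely Cd80, Cd86, Cd40, Cd83, Cd274, Pdcd1lg2, Icosl, Cd200, Cd276 and Havcr2. A gene entered through a probe set of the array to which the platform annotation gave that symbol and no other. Each of the 10 had 1 such probe set, among 14860 genes with a probe set of a single symbol. RNA was measured on 12 exon arrays in 4 groups of 3. Cre+ cells came from mice in which dendritic cells (DC) were targeted for deletion of Tgfbr2, which encodes a TGF-beta receptor chain, and Cre- cells from control mice. All mice were of the C57BL/6 background, and the sources name neither an age nor the promoter that drove Cre. The groups were MLN Cre+ and MLN Cre-, CD11c+CD103+ DC flow-sorted from mesenteric lymph nodes (MLN) pooled over 4 mice a sample, and spleen Cre+ and spleen Cre-, splenic CD11c+ DC taken by magnetic sorting. The labels named the Cre- mice as healthy and used no such word for the Cre+ mice, and the labelled cell type of the MLN Cre+ samples read Cre-, whereas their titles, sources and genotypes read Cre+ and were followed here.

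A T cell that meets its antigen on a DC also reads a set of surface ligands. CD80 and CD86, the classical B7 proteins, engage CD28 to costimulate and CTLA-4 to inhibit. PD-L1 (Cd274) and PD-L2 (Pdcd1lg2) engage the inhibitory receptor PD-1, ICOSL (Icosl) engages ICOS, and B7-H3 (Cd276) is a relative whose receptor is not settled. CD40 is a receptor through which T cells license the DC, CD83 marks mature DC and stabilises surface CD86 and MHC class II, CD200 restrains myeloid cells through its receptor, and TIM-3 (Havcr2) is an inhibitory receptor carried by DC as well as T cells. CD103+ DC of the MLN are migratory cells that bring antigen from the gut wall.

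Values were log2 expression as deposited, made by robust multi-array averaging (RMA). The arrays of the 2 tissues carried different distributions, with array medians of 6.74 to 6.89 in MLN and 7.03 to 7.08 in spleen and an SD over probe sets of 1.8 to 1.91 in MLN and 2.37 to 2.42 in spleen, so tissue differences are given as deposited and again after quantile normalization of the 12 arrays, which forces them to 1 distribution. Tgfbr2 averaged 9.46 ± 0.08 in MLN Cre+ and 9.58 ± 0.08 in MLN Cre- (mean ± SD, n = 3), and 10.70 ± 0.03 in spleen Cre+ and 10.94 ± 0.02 in spleen Cre- (mean ± SD, n = 3). The Cre+ arrays were below the Cre- arrays in both tissues, neither difference passed the limma test (adjusted p = 0.524 in MLN and 0.138 in spleen), and a gene-level value also covers probes outside a deleted part. The Y-linked gene Eif2s3y lay between 3.03 and 3.31 in spleen Cre+ and between 9.81 and 10.07 in spleen Cre-, so sex and genotype cannot be told apart in spleen, whereas in MLN the ranges of 7.03 to 8.20 in Cre+ and 6.27 to 8.06 in Cre- overlapped. Of the sort markers, Itgae (CD103) averaged 7.76 ± 0.21 in MLN Cre+, 8.0 ± 0.17 in MLN Cre-, 7.33 ± 0.39 in spleen Cre+ and 6.94 ± 0.26 in spleen Cre- (mean ± SD, n = 3), and the DC growth factor receptor gene Flt3 ranked between percentiles 96.1 and 97.7 of the 12 arrays. B cell genes were also bright in all groups, with Cd79a at 12.15 ± 0.11 in MLN Cre+, 12.06 ± 0.07 in MLN Cre-, 12.75 ± 0.46 in spleen Cre+ and 12.56 ± 0.14 in spleen Cre- (mean ± SD, n = 3). In such bulk samples, fewer cells of a type and less RNA per cell cannot be told apart. The labels do not say how the replicates were separated, so p-values measure the spread between these arrays, which may be technical in part.

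Cd80, Cd86, Cd83 and Havcr2 were lower in MLN CD103+ DC than in splenic DC in both genotypes and on both scales. Cd86 was 8.63, 8.53 and 8.42 in MLN Cre+, against 11.53, 11.28 and 10.94 in spleen Cre+. It was 8.16, 8.41 and 8.22 in MLN Cre-, against 11.13, 11.24 and 11.42 in spleen Cre-. Every MLN array thus lay below every splenic array. The difference was -2.72 (SE 0.146, limma adjusted p = 9.64e-08) in Cre+ and -3.00 (SE 0.146, limma adjusted p = 3.77e-08) in Cre-, and -1.77 and -1.95 after quantile normalization.

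Cd80, the other CD28 ligand, was 8.82, 8.89 and 9.23 in MLN Cre+, against 10.89, 10.78 and 10.96 in spleen Cre+. It was 8.26, 8.57 and 8.68 in MLN Cre-, against 11.01, 10.99 and 11.14 in spleen Cre-. No MLN array reached a splenic one. The tissue difference was -1.90 in Cre+ and -2.55 in Cre- (SE 0.132 each), and -0.87 and -1.46 after quantile normalization. Limma gave adjusted p = 4.27e-07 in Cre+ and 5.05e-08 in Cre- as deposited.

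Cd83 was 10.52, 10.58 and 10.52 in MLN Cre+, against 12.68, 12.73 and 12.46 in spleen Cre+. It was 10.29, 10.54 and 10.73 in MLN Cre-, against 12.46, 12.49 and 12.58 in spleen Cre-. This mature-DC marker therefore separated the tissues without overlap, by -2.09 in Cre+ and -1.99 in Cre- (SE 0.115 each). After quantile normalization these differences were -1.21 and -0.99.

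Havcr2 was 9.0, 8.73 and 9.47 in MLN Cre+, against 11.22, 10.99 and 11.11 in spleen Cre+. It was 8.30, 8.57 and 8.78 in MLN Cre-, against 11.12, 11.04 and 11.16 in spleen Cre-. The differences of -2.04 in Cre+ and -2.56 in Cre- (SE 0.175 each) became -1.03 and -1.47 after quantile normalization. Havcr2 followed Cd80 more closely than any other gene did. With each gene's own mean taken off, the 2 genes differed over the 12 arrays by a root mean square of 0.122 log2 units, the smallest value among 14542 other probe sets of named genes. The next nearest to Cd80 were Pex7, a peroxisomal import receptor (0.131), and Arf2, a vesicle-traffic GTPase (0.139).

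**Figure D1:**
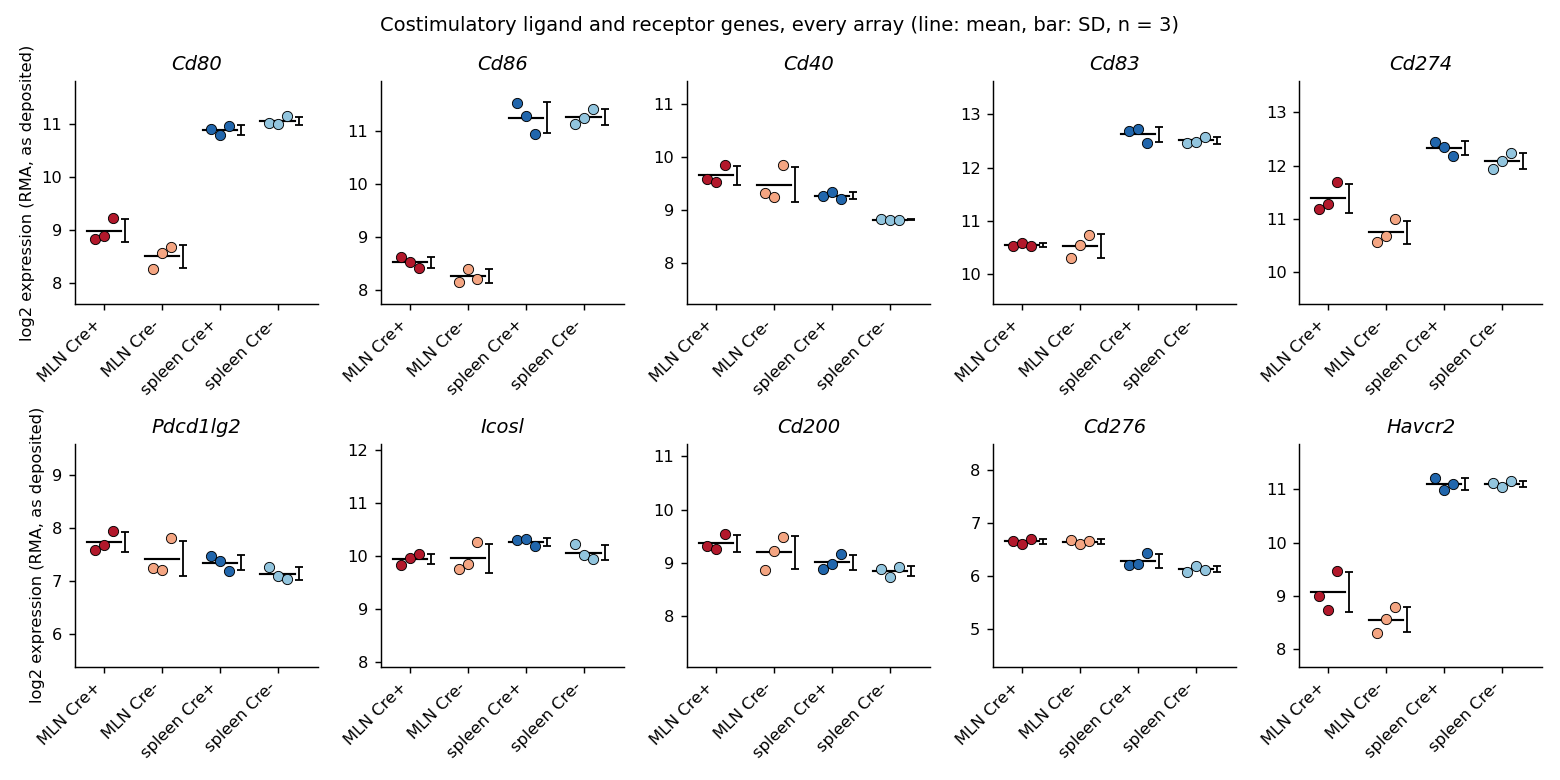
Log2 expression (y axis, RMA as deposited, each panel spanning the same number of log2 units) of the 10 genes in every array, by group (x axis), with the mean as a line and the SD as a bar (n = 3). Cd80, Cd86, Cd83 and Havcr2 are low in the MLN groups and high in the splenic groups, with no overlap, while the remaining genes differ less.

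Cd274 depended on the scale. It was 11.18, 11.28 and 11.69 in MLN Cre+, against 12.44, 12.35 and 12.18 in spleen Cre+. It was 10.57, 10.68 and 10.99 in MLN Cre-, against 11.94, 12.09 and 12.24 in spleen Cre-. As deposited the MLN arrays were below the splenic arrays, by -0.94 in Cre+ and -1.34 in Cre- (SE 0.154 each). After quantile normalization the differences were -0.04 (limma adjusted p = 0.818) and -0.30 (limma adjusted p = 0.0555), and the arrays overlapped. Within its own array the gene ranked between percentiles 98.7 and 99.2 in MLN Cre+ and between 98.8 and 99.2 in spleen Cre+. These percentiles were 98.0 to 98.4 in MLN Cre- and 98.4 to 98.9 in spleen Cre-.

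Cd40 was higher in MLN DC on both scales, and so were the values of Cd276, which was dim in all groups. Cd40 was 9.59, 9.52 and 9.85 in MLN Cre+, against 9.27, 9.34 and 9.20 in spleen Cre+. It was 9.33, 9.24 and 9.85 in MLN Cre-, against 8.83, 8.81 and 8.82 in spleen Cre-. Both genotypes showed MLN arrays above splenic ones, by 0.38 (SE 0.147, limma adjusted p = 0.0354) in Cre+ and 0.65 (SE 0.147, limma adjusted p = 0.00187) in Cre-, and by 1.34 and 1.66 after quantile normalization. Cd276 was 6.65, 6.59 and 6.70 in MLN Cre+, against 6.20, 6.22 and 6.43 in spleen Cre+. It was 6.68, 6.59 and 6.66 in MLN Cre-, against 6.08, 6.19 and 6.11 in spleen Cre-. The groups did not overlap, with differences of 0.36 in Cre+ and 0.52 in Cre- (SE 0.083 each) that barely moved with the scale (0.37 and 0.59). Cd276 ranked between percentiles 44.7 and 46.6 in MLN Cre+ and 46.1 and 48.5 in MLN Cre-. In spleen these were 37.7 to 41.2 in Cre+ and 35.8 to 37.3 in Cre-. Without a detection call, its expression in these cells was not shown.

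The last 3 genes were higher in MLN DC after quantile normalization, with smaller or opposite differences as deposited. Pdcd1lg2 averaged 7.74 ± 0.19 in MLN Cre+ and 7.34 ± 0.14 in spleen Cre+ (mean ± SD, n = 3), and 7.42 ± 0.33 in MLN Cre- and 7.14 ± 0.12 in spleen Cre- (mean ± SD, n = 3). Its differences of 0.39 in Cre+ and 0.28 in Cre- became 0.86 and 0.80. Cd200 averaged 9.37 ± 0.16 in MLN Cre+ and 9.01 ± 0.15 in spleen Cre+ (mean ± SD, n = 3), and 9.19 ± 0.31 in MLN Cre- and 8.84 ± 0.10 in spleen Cre- (mean ± SD, n = 3). Its differences of 0.36 and 0.35 missed the threshold as deposited (limma adjusted p = 0.0514 in Cre+ and 0.0551 in Cre-) and became 1.27 and 1.36. On the deposited values it passed in limma in both genotypes without dim probe sets (adjusted p = 0.0422 in Cre+ and 0.0456 in Cre-), with single-symbol probe sets (0.0345 and 0.0379), with a trended robust variance (0.0462 and 0.0496) and with array weights (0.00962 and 0.0365). With 1 array left out at a time, the limma adjusted p ran from 0.0214 to 0.167 in Cre+ and from 0.00656 to 0.218 in Cre-. As deposited, the MLN Cre- and spleen Cre- arrays of Cd200 overlapped. Icosl averaged 9.94 ± 0.10 in MLN Cre+ and 10.26 ± 0.07 in spleen Cre+ (mean ± SD, n = 3), and 9.95 ± 0.26 in MLN Cre- and 10.06 ± 0.14 in spleen Cre- (mean ± SD, n = 3). Its sign turned with the scale: the Cre+ difference was -0.32 as deposited and 0.73 after quantile normalization, and the Cre- difference was -0.10 and 1.0.

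In all, 9 of the 10 genes were called between MLN Cre+ and spleen Cre+ (3 higher and 6 lower), where 71.7% of all 23332 probe sets were called (26.5% higher and 45.2% lower). Between MLN Cre- and spleen Cre- 7 were called (2 higher and 5 lower), against 75.3% of all probe sets (26.3% higher and 49.0% lower). The Cre+ calls of Cd40, Pdcd1lg2 and Icosl were each lost when any of several single arrays was left out, and the count then ran from 6 to 10. These shares are near the background, so the counts say little about the family, and the sizes and directions above carry the description. After quantile normalization 9 were called in each genotype, 5 higher and 4 lower, against 58.0% of all probe sets in Cre+ (30.6% higher and 27.4% lower) and 64.1% in Cre- (34.4% higher and 29.7% lower). Tissue also stands for the sort, the gate and the pooling, which cannot be told apart from it. Y-linked RNA differed between the tissues as well. For Eif2s3y the difference was 4.43 between MLN Cre+ and spleen Cre+ and -2.48 between MLN Cre- and spleen Cre-. Sex therefore cannot be told apart from tissue either.

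**Figure D2:**
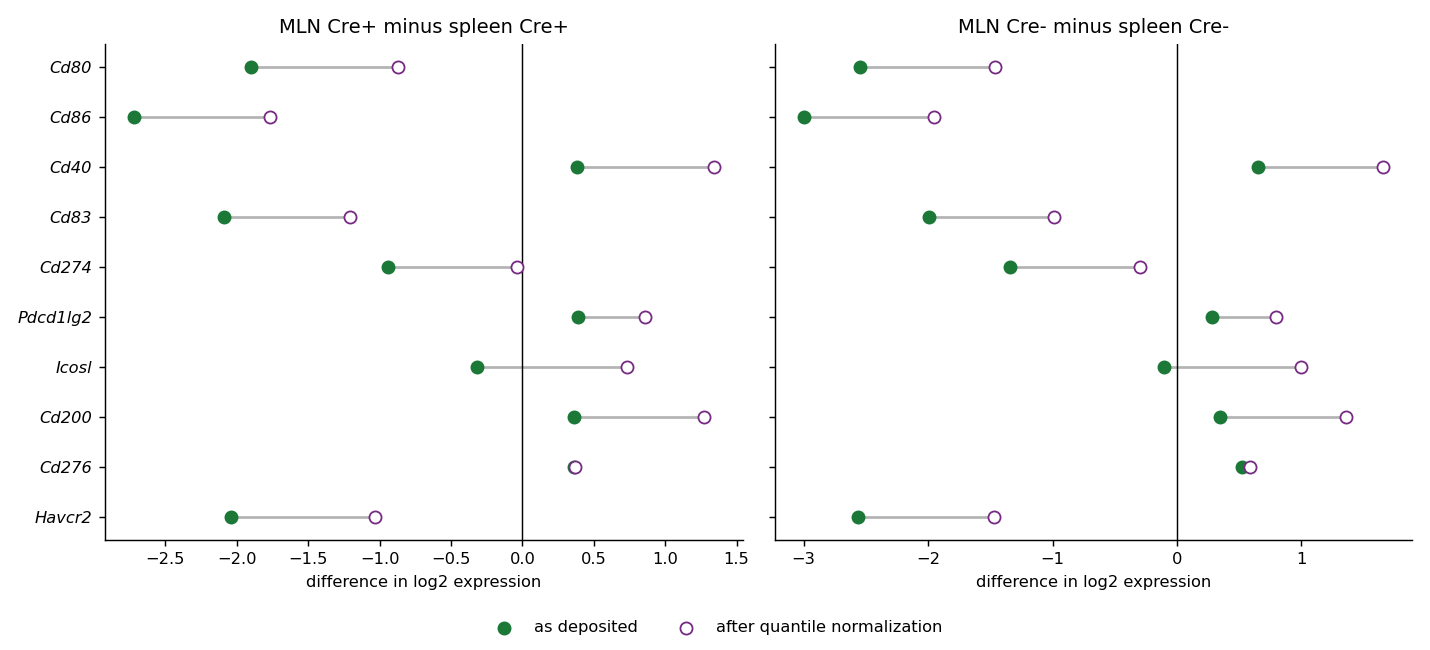
Tissue difference in log2 expression (x axis, MLN minus spleen) of each gene (y axis) in Cre+ (left) and Cre- (right) cells, as deposited (filled) and after quantile normalization (open). Cd80, Cd86, Cd83 and Havcr2 stay below 0 on both scales, Cd40 and Cd276 stay above 0, and Icosl changes sign.

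The promoters of 2 pairs are shown, Cd80 and Havcr2 because their array patterns were the most alike, and Cd274 and Pdcd1lg2 because they are neighbours on chromosome 19 with 0 annotated genes between them, yet had tissue differences of opposite sign as deposited. Sequences are those of RefSeq on GRCm38.p6, plus strand, from 250 bases before to 50 after the start, at chr16:38458683-38458982 (Cd80), chr11:46454681-46454980 (Havcr2), chr19:29367188-29367487 (Cd274) and chr19:29410669-29410968 (Pdcd1lg2). Capitals mark matches to 6 motifs searched on both strands.
Cd80: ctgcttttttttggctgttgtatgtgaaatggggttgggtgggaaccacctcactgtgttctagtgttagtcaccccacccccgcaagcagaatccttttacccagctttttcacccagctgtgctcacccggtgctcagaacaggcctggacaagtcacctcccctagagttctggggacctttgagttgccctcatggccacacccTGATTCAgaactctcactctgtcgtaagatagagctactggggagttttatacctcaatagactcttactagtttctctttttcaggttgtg
Havcr2: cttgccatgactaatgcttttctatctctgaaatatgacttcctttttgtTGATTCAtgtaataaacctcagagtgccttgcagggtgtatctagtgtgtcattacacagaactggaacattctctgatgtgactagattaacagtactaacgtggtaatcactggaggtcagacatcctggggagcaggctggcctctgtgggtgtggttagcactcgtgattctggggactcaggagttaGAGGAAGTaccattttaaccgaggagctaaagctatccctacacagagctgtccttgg
Cd274: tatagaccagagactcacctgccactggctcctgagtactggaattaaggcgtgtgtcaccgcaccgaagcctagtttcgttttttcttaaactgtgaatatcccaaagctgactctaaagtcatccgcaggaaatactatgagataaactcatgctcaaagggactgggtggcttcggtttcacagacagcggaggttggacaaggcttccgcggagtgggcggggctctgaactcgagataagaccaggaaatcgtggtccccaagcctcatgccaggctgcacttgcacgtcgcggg
Pdcd1lg2: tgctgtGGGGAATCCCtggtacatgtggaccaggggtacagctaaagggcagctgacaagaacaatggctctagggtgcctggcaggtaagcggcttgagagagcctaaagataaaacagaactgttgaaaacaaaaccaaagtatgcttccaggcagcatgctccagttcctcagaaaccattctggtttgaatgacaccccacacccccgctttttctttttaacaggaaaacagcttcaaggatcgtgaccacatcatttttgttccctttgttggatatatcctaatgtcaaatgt
The motifs were an AP-1 site (TGANTCA, in 7.79% of 32544 promoters of that length), a PU.1 core (GAGGAAGT, 3.11%), the kappaB site (8.49%), a gamma-activated site (TTCNNNGAA, 8.33%), an interferon-stimulated response element core (3.45%) and the Smad palindrome (GTCTAGAC, 0.215%). Cd80 and Havcr2 each held an AP-1 match with the same letters, Havcr2 also a PU.1 core match and Pdcd1lg2 a kappaB match, and none overlapped. The Cd274 window held no match. Of the 7 genes of the family with a promoter in the table, Icosl also had a kappaB match, and Cd200 and Cd276 had none. A match describes letters in this window and is not a binding site.

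Neither tissue showed a genotype difference past the threshold in any of the 10 genes. In MLN 0 of 10 were called, where 0.0857% of all probe sets were, and 3 (Cd80, Cd274 and Havcr2) had an unadjusted p under 0.05 in limma, where 11.9% of all probe sets did. In spleen 0 of 10 were called, where 2.17% of all probe sets were, and 1 (Cd40) had an unadjusted p under 0.05, where 16.2% did. Groups that did not overlap were counted too. In MLN 3 of 10 genes (Cd80, Cd274 and Cd86) had all Cre+ arrays above the Cre- arrays and 0 had them below, against 13.4% and 4.29% of all probe sets. In spleen 2 (Cd40 and Cd276) had them above and 1 (Cd80) below, against 12.4% and 9.37%. For 3 arrays against 3 the exact permutation test cannot give a two-sided p under 0.1, which it gave wherever the groups did not overlap. The values that follow are therefore measured differences with their intervals, not called changes.

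Cd274 had the largest MLN difference. Its 3 MLN Cre+ arrays (11.18, 11.28 and 11.69) all lay above the 3 MLN Cre- arrays (10.57, 10.68 and 10.99). The difference was 0.63 (95% interval 0.29 to 0.98, a fold of 1.55, limma adjusted p = 0.212). In spleen the arrays overlapped, with 12.44, 12.35 and 12.18 in Cre+ against 11.94, 12.09 and 12.24 in Cre-, a difference of 0.24 (interval -0.11 to 0.58, adjusted p = 0.504 in limma). Averaged over the tissues the difference was 0.43 (interval 0.19 to 0.68, a fold of 1.35), with limma adjusted p = 0.0829. That p ran from 0.00718 to 0.203 over the other settings and omissions tried, and was under the threshold when dim probe sets (0.0494) or probe sets without a single symbol (0.0425) were left out, with array weights (0.00718) and without MLN Cre- replicate 3 (0.0441). Array weights called 3044 of all 23332 probe sets in this mean, against 293 without them.

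Cd80 differed in opposite directions in the tissues. In MLN the Cre+ arrays (8.82, 8.89 and 9.23) were above the Cre- arrays (8.26, 8.57 and 8.68), a difference of 0.48 (interval 0.19 to 0.77, adjusted p = 0.271 in limma). In spleen the Cre+ arrays (10.89, 10.78 and 10.96) were below the Cre- arrays (11.01, 10.99 and 11.14), a difference of -0.17 (interval -0.46 to 0.12, adjusted p = 0.592 in limma). The MLN difference minus the spleen difference was 0.65 (SE 0.187, limma adjusted p = 0.21), so the tissues were not shown to differ, although with array weights the adjusted p in limma was 0.0378. Those weights called 1007 of all 23332 probe sets in this contrast, against 38 without them. Cd86 gave 0.26 in MLN (interval -0.06 to 0.59) and -0.01 in spleen (interval -0.34 to 0.31). Its MLN groups did not overlap as deposited and overlapped after quantile normalization, where the difference was 0.11.

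Cd40 had the largest spleen difference. The Cre+ arrays (9.27, 9.34 and 9.20) were all above the Cre- arrays (8.83, 8.81 and 8.82), whose SD was 0.01. The difference was 0.45 (interval 0.13 to 0.77, a fold of 1.37, limma adjusted p = 0.153), and 0.18 in MLN (interval -0.14 to 0.50), where the arrays overlapped. In spleen its adjusted p fell to 0.0434 in limma without MLN Cre- replicate 3, an array outside that comparison that enters through the shared spread, and to 0.0154 with array weights. The weights called 2747 of all 23332 probe sets in spleen, against 507 without them.

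Havcr2 differed by 0.52 in MLN (interval 0.13 to 0.91, limma adjusted p = 0.351), where 9.0, 8.73 and 9.47 in Cre+ overlapped 8.30, 8.57 and 8.78 in Cre-, and by 0.00 in spleen (interval -0.39 to 0.39). Pdcd1lg2 differed by 0.32 in MLN (interval -0.04 to 0.68) and 0.21 in spleen (interval -0.15 to 0.56), and Cd200 by 0.18 (interval -0.16 to 0.51) and 0.17 (interval -0.17 to 0.50). Cd83 gave 0.02 in MLN (interval -0.23 to 0.27) and 0.11 in spleen (interval -0.14 to 0.37), and Icosl -0.02 (interval -0.31 to 0.27) and 0.20 (interval -0.09 to 0.49). Cd276 had the narrowest intervals, at 0.00 in MLN (interval -0.18 to 0.18) and 0.16 in spleen (interval -0.03 to 0.34). Leaving out 1 array at a time gave MLN differences of 0.318 (without MLN Cre+ replicate 3) to 0.687 (without MLN Cre+ replicate 2) for Havcr2. The range was 0.0639 (without MLN Cre- replicate 2) to 0.369 for Cd40, 0.212 (without MLN Cre+ replicate 3) to 0.508 for Pdcd1lg2 and 0.016 (without MLN Cre- replicate 1) to 0.325 for Cd200, and the highest value of these 3 genes came without MLN Cre- replicate 3. These intervals leave room for differences of up to about the upper bounds given, so no gene was shown to be alike in the genotypes.

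All 10 mean differences over the tissues were positive, with a median of 0.16, where 61.6% of all probe sets were positive, with a median of 0.04. In MLN 8 of 10 were positive (median 0.22) against 66.7% of all probe sets (median 0.08), and in spleen 7 of 10 (median 0.16) against 52.9% (median 0.01). After quantile normalization the members' median was 0.08 in MLN and 0.12 in spleen, against -0.01 and 0.01 for all probe sets. In the mean over tissues it was then 0.07, against -0.01. On that scale the mean differences were no longer all positive, with Icosl at -0.0091. In the mean over tissues 0 of 10 genes were called by limma, where 1.26% of all probe sets were, and 3 (Cd274, Cd40 and Pdcd1lg2) had an unadjusted p under 0.05, where 16.7% did. In the difference between the tissues' genotype differences 0 of 10 were called by limma, where 0.163% were, 1 (Cd80) had an unadjusted p under 0.05, where 12.2% did, and 6 were above 0, where 59.6% were. These contrasts are built from the same arrays and are not independent of the differences within tissues. Both also contain the spleen difference, in which sex and genotype cannot be told apart. Eif2s3y differed by -3.28 in the mean and by 6.91 in the difference between tissues.

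**Figure D3:**
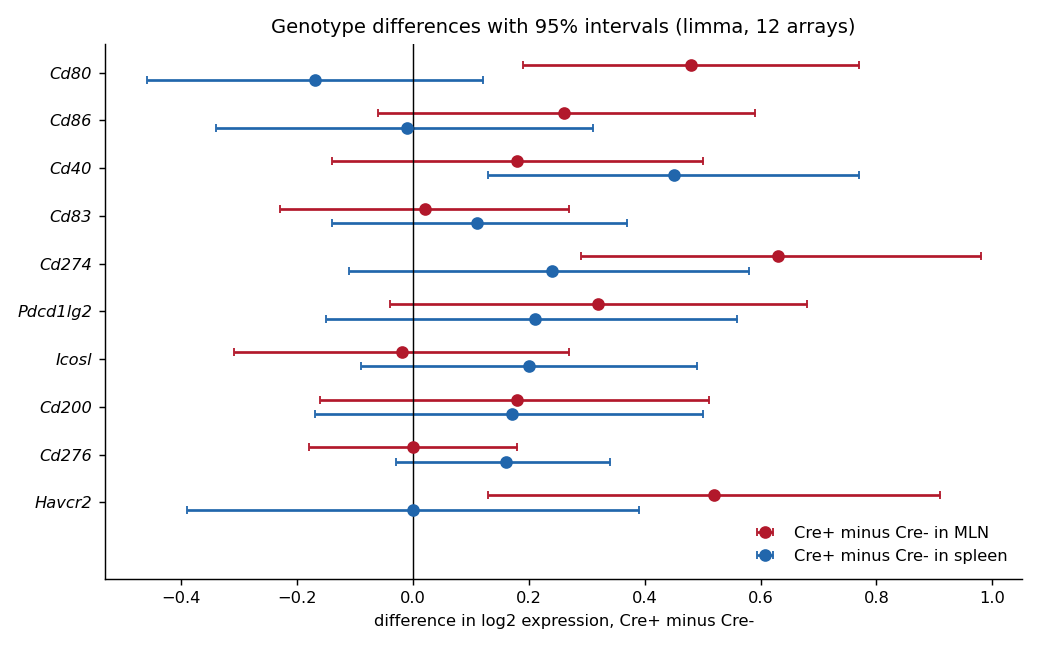
Genotype difference in log2 expression (x axis, Cre+ minus Cre-) of each gene (y axis) in MLN and spleen, with 95% intervals from limma. The intervals of Cd80, Cd274 and Havcr2 in MLN and of Cd40 in spleen lie above 0 before adjustment for multiple tests, and none of the 10 genes passed after it.

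Several members had their highest value in the same array of a group. MLN Cre+ replicate 3 held the highest value of its group for 8 of the 10 genes, and MLN Cre- replicate 3 likewise for 8. In the MLN Cre- group that array had Cd40 at 9.85, against 9.33 and 9.24 in the others, and Pdcd1lg2 at 7.80, against 7.25 and 7.21. These were also the arrays with the highest median of their group (6.89 in Cre+ and 6.81 in Cre-) and the highest mean of the DC maturation genes described next (10.33 in Cre+ and 10.39 in Cre-, against 10.06 and 10.15 in the other Cre+ and 9.91 and 10.08 in the other Cre- arrays). By percentile within the array, Icosl (replicate 2) and Cd276 (replicate 1) in MLN Cre+ and Cd80 (replicate 2) in MLN Cre- were highest elsewhere. The share of all probe sets that were highest in either replicate 3 array was not computed. The part of the array level in the members' values was not tested.

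Genes of DC maturation were more often higher than lower in MLN DC. Of 19 such genes measured, 10 were higher and 2 lower in MLN Cre+ than in spleen Cre+, where 26.5% of all probe sets were called higher and 45.2% lower. In MLN Cre- 7 were higher and 2 lower than in spleen Cre-, where 26.3% were called higher and 49.0% lower. After quantile normalization 18 of the 19 were higher in Cre- and 0 lower, where 34.4% of all probe sets were called higher and 29.7% lower, and the exception was Lamp3 (-0.22, limma adjusted p = 0.127). In Cre+ 17 were then higher and 1 lower, where 30.6% of all probe sets were called higher and 27.4% lower. Ccl22, a chemokine for CCR4-bearing T cells, averaged 11.63 ± 0.28 in MLN Cre- and 8.61 ± 0.17 in spleen Cre- (mean ± SD, n = 3), a difference of 3.02 (SE 0.176, limma adjusted p = 9.61e-08) that was 3.87 after quantile normalization. Fscn1, the actin-bundling protein of DC dendrites, averaged 12.77 ± 0.21 in MLN Cre- and 10.61 ± 0.20 in spleen Cre- (mean ± SD, n = 3), a difference of 2.16 (SE 0.188), and 3.02 after quantile normalization. Apol7c differed by 2.17, the suppressor of cytokine signalling Socs2 by 1.51 and the tryptophan-degrading Ido1 by 1.51, and by 3.04, 2.50 and 1.87 after quantile normalization. Ccr7, the receptor that guides DC into lymph nodes, was bright in all groups and differed by 0.04 in Cre- as deposited (SE 0.104, limma adjusted p = 0.722) but by 0.67 after quantile normalization (limma adjusted p = 0.000116), so its call depended on the scale. Between genotypes 0 of these 19 genes were called in MLN and 0 in spleen. Of all probe sets 0.0857% and 2.17% were called there, so a count of 0 in so short a list says little.

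Of 8 costimulatory ligands of the TNF family, 3 were higher and 4 lower in MLN Cre- than in spleen Cre-, where 26.3% of all probe sets were called higher and 49.0% lower. After quantile normalization the counts were again 3 and 4, where 34.4% were called higher and 29.7% lower, so both counts lay near the background. Tnfsf9 (4-1BB ligand) differed by -2.15, Tnfsf14 (LIGHT) by -2.09 and Tnfsf18 (GITR ligand) by -1.76, and by -1.39, -1.79 and -1.61 after quantile normalization. Cd70, the ligand of CD27, was higher by 0.80, and by 0.70 after quantile normalization. It was dim, between percentiles 39.0 and 42.6 in MLN Cre- and 25.9 and 28.9 in spleen Cre-. No member of this list was called between genotypes (0 of 8 in MLN and 0 of 8 in spleen, limma), where 0.0857% and 2.17% of all probe sets were.

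Of 14 genes of CD40 and NF-kappaB signalling, 0 were higher and 10 lower in MLN Cre- than in spleen Cre- as deposited, where 26.3% of all probe sets were called higher and 49.0% lower. After quantile normalization 8 were higher and 3 lower, where 34.4% were called higher and 29.7% lower, so the direction of this list turned with the scale. The genes lower on both scales were the NF-kappaB subunit Rel (-1.41, and -0.59 after quantile normalization), the deubiquitinase Tnfaip3 (-1.56 and -0.49) and the nuclear regulator gene Nfkbiz (-1.97 and -0.85). Of 5 genes of the turnover of CD86 and MHC class II, 1 was higher and 4 lower in MLN Cre- than in spleen Cre- (median -0.57), and 2 were higher and 2 lower after quantile normalization. The lower genes as deposited were the ligase gene Marchf8 (-0.85, and -0.79 after quantile normalization), H2-Ab1 (-0.87 and -0.24), H2-Aa (-0.57 and 0.05) and the invariant chain gene Cd74 (-0.19 and 0.32). Marchf1, a ubiquitin ligase that removes CD86 and MHC class II from the DC surface, was the higher one, at 6.63 ± 0.02 in MLN Cre- and 5.32 ± 0.10 in spleen Cre- (mean ± SD, n = 3), a difference of 1.31 (SE 0.0882, limma adjusted p = 2.43e-07). After quantile normalization the Marchf1 difference was 1.26, and in Cre+ it was 1.40 as deposited and 1.35 after quantile normalization. Marchf1 was dim, between percentiles 46.3 and 47.4 in MLN Cre- and 21.9 and 25.0 in spleen Cre-, and no detection call was available. Between genotypes 0 of 14 and 0 of 5 genes of these 2 lists were called in each tissue. The share of all probe sets called was 0.0857% in MLN and 2.17% in spleen.

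Of partner genes of costimulatory ligands, not all of them T cell genes, 9 were measured. Pdcd1, which encodes PD-1, was the one called in the mean genotype difference, by 0.55 (SE 0.0976, limma adjusted p = 0.0281), where 1.26% of all probe sets were called. It averaged 7.70 ± 0.12 in MLN Cre+ and 7.09 ± 0.13 in MLN Cre- (mean ± SD, n = 3), and 7.65 ± 0.27 in spleen Cre+ and 7.17 ± 0.14 in spleen Cre- (mean ± SD, n = 3). Within MLN and within spleen 0 of the 9 genes were called between genotypes, where 0.0857% and 2.17% of all probe sets were. Between tissues Cd40lg, the CD40 ligand gene of activated T cells, was higher in MLN Cre- than in spleen Cre- by 1.16, and Cd200r1, the CD200 receptor gene of myeloid cells, was lower (difference -1.63). After quantile normalization these differences were 1.68 and -1.50. Of 8 T cell markers, 5 were called higher and 1 lower in MLN Cre- than in spleen Cre-. Among all probe sets 26.3% were called higher and 49.0% lower. Quantile-normalized values gave 7 higher and 0 lower, where 34.4% were called higher and 29.7% lower. Cd3e was 11.32 ± 0.09 in MLN Cre- and 9.84 ± 0.24 in spleen Cre- (mean ± SD, n = 3), whereas Cd2 was 10.12 ± 0.08 and 11.20 ± 0.16. The part of T cell RNA in the values of the partner genes was not tested.

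Some genes induced by interferon-gamma, a cytokine known to raise PD-L1 in many cells, were called higher in Cre+ cells. In spleen, where sex and genotype cannot be told apart, 7 of 13 rose, against 1.24% of all probe sets called higher and 0.93% lower. In MLN 2 of 13 (Cxcl9 and Gbp7) rose and 11 did not pass, where 0.0729% of all probe sets were called higher. After quantile normalization 5 rose and 1 (Irf8, a DC transcription factor gene, -0.36, limma adjusted p = 0.0356) fell in spleen, where 0.647% of all probe sets were called higher and 0.579% lower. The chemokine gene Cxcl9 was 9.52 ± 0.23 in MLN Cre+ and 8.31 ± 0.16 in MLN Cre- (mean ± SD, n = 3), and 11.25 ± 0.26 in spleen Cre+ and 9.87 ± 0.17 in spleen Cre- (mean ± SD, n = 3). It rose by 1.21 in MLN (limma adjusted p = 0.0289) and by 1.38 in spleen (0.00398). Over both tissues 8 of the 13 rose, against 1.02% of all probe sets called higher, and 4 of 13 after quantile normalization, against 0.497%. A link between these genes and the Cd274 values was not tested.

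Markers of many cell types, DC included, moved with the tissue difference. Between MLN Cre- and spleen Cre- 49.0% of all probe sets were called lower as deposited, and 29.7% after quantile normalization. As deposited, 5 of 5 core DC genes, 6 of 7 genes of the DC subset cDC1 and 6 of 6 plasmacytoid DC genes were called lower. Quantile-normalized, 2, 2 and 3 of these were called lower and 1, 2 and 0 higher. All 11 macrophage markers were lower in MLN Cre- than in spleen Cre- on both scales, with an array mean over the list of 7.20 to 7.64 in MLN Cre- and 10.88 to 11.22 in spleen Cre-, and of 7.85 to 8.06 in MLN Cre+ and 10.57 to 10.71 in spleen Cre+. The 6 monocyte markers had means of 8.77 to 8.97 in MLN Cre+ and 11.20 to 11.43 in spleen Cre+, and of 8.08 to 8.28 in MLN Cre- and 11.12 to 11.17 in spleen Cre-, and all 6 were lower in MLN. The 8 B cell markers had means of 10.42 to 10.57 in MLN Cre- and 11.43 to 11.76 in spleen Cre-, and after quantile normalization their median difference was -0.07. The 5 NK cell markers (median -2.96, and -2.34 after quantile normalization), the 8 neutrophil markers (-3.10 and -2.78) and the 6 markers of cDC2, a conventional DC subset (-2.28 and -1.24), were all lower in MLN Cre- as deposited, and all but 1 of the cDC2 genes also after quantile normalization. Between genotypes in MLN all 11 macrophage differences and all 6 monocyte differences were above 0 in Cre+, where 66.7% of all probe sets were. Of these, Adgre1 (F4/80) and Fcgr4 were called, where 0.0729% of all probe sets were called higher. After quantile normalization 4 macrophage genes and 2 monocyte genes were called, with Csf1r in both lists, where 0.167% were called higher. In spleen, where sex and genotype cannot be told apart, 7 of 8 neutrophil genes rose in Cre+, against 1.24% of all probe sets called higher. There 2 of 11 macrophage genes (Cd163 and Mertk) and 2 of 6 plasmacytoid DC genes (Ccr9 and Bst2) fell, against 0.93% called lower. Quantile-normalized, 5 neutrophil genes rose (0.647% of all probe sets), and 2 macrophage and 3 plasmacytoid DC genes fell (0.579%). The plasmacytoid DC gene Cox6a2 was instead above 0, uncalled, at 10.24 ± 0.09 in spleen Cre+ and 9.40 ± 0.56 in spleen Cre-. The part of all these cell types in the values of Cd80, Cd86, Cd83, Cd274 and Havcr2 was not tested.

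**Figure D4:**
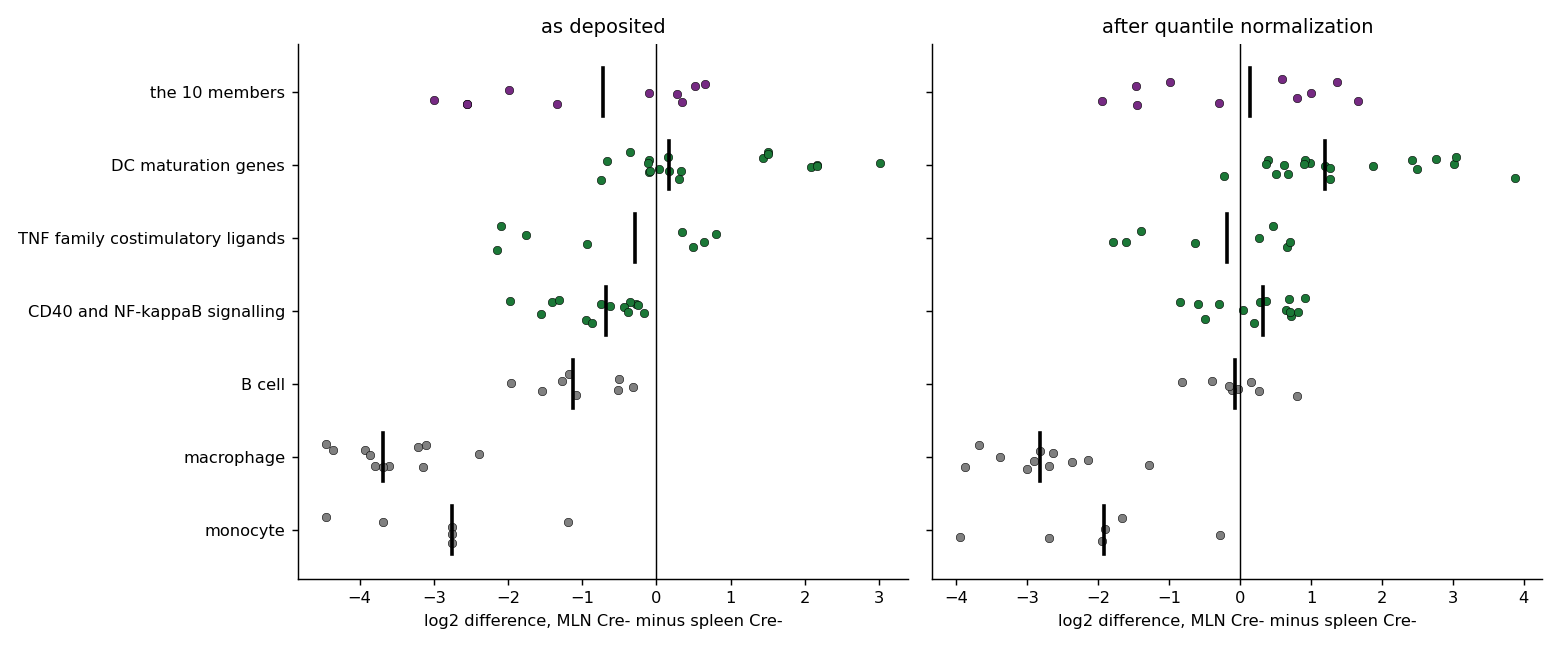
Tissue difference in log2 expression (x axis, MLN Cre- minus spleen Cre-) of each measured gene (points) in 7 lists (y axis), with the median as a bar, as deposited (left) and after quantile normalization (right). The family splits around 0, DC maturation genes lie mostly above 0 (median 1.19 on the right) and macrophage and monocyte markers below it.

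Other genes shared the patterns of single members over the 12 arrays. Closest to Cd86 were Fgd4, a Cdc42 exchange factor (root mean square difference 0.135 log2 units), Plaur, the urokinase receptor (0.14), and the transcription factor gene Cebpb (0.155). Closest to Cd40 were Crispld2 (0.118), the actin-associated Pdlim4 (0.13) and the granule-release gene Unc13d (0.13). Closest to Cd274 were the stress sensor gene Ern1 (0.119), the RNA-editing enzyme gene Apobec1 (0.126) and the kinase gene Prkx (0.13). Within the family Cd40 and Pdcd1lg2 were 0.152 apart, while Cd86 and Cd40 were the most unlike pair, at 1.71. The tissue difference dominates this measure, and it says nothing of shared control.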

How the data were processed

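RNA of 12 samples was hybridised to Affymetrix exon arrays. The authors deposited gene-level log2 values made with RMA in GeneSpring, per the labels, and their log2 scale was read from their range. No source used here names the software version or the genome build. Names came from the platform annotation: of 23332 probe sets, 14996 had 1 symbol, 1019 several and 7317 none.

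No further scaling was applied before the fit in limma 3.58.1 under R 4.3.3, which estimated 4 group means from all 12 arrays and was followed by eBayes, two-sided tests and Benjamini-Hochberg adjustment over all 23332 probe sets of a contrast. A gene was called at an adjusted p under 0.05. The number of arrays limits the precision, and RMA values carry no detection call.

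The 10 genes, the lists and the markers were chosen with earlier results of these data known. Named were the 10 genes, Tgfbr2, Y-linked genes, the 4 genes of each list with the smallest p in a contrast, and the 3 genes most like Cd80, Cd86, Cd40 and Cd274; Ido1, Ccr7, Cd70, Cd74 and Cd40lg fall outside that rule and were chosen after their values were seen. Alternatives were other scalings, the removal of dim probe sets (those whose brightest group averaged 6.37 or less, leaving 15737 and all 10 genes), other variance models, array weights, a replicate block and omission of each array. One probe set per gene left no other to try.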

Additional observations from a re-analysis of the deposited data

How the results depend on the processing

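The counts of 0 called genes between genotypes held under most settings, and the calls that appeared are given here; the causes were not tested. With array weights, which spread widely between arrays, 1 gene was called in spleen (Cd40), 2 in MLN (Cd80 and Cd274), 3 in the mean (Cd40, Cd274 and Pdcd1lg2) and 1 in the difference between tissues (Cd80). Calls then rose among all 23332 probe sets too. They numbered 2747 in spleen, 966 in MLN, 3044 in the mean and 1007 in the difference between tissues. Without weights these numbers were 507, 20, 293 and 38. In the mean, leaving out dim probe sets called 1 and keeping probe sets of a single symbol called 1, Cd274 in both, where fewer probe sets were tested. These 2 settings called 553 of 15737 and 498 of 14996 probe sets. Leaving out 1 array at a time gave 0 to 1 called genes in spleen, 0 to 0 in MLN, 0 to 2 in the mean, 0 to 0 in the difference between tissues, 6 to 10 between MLN Cre+ and spleen Cre+ and 7 to 8 between MLN Cre- and spleen Cre-. Every genotype call among these came without MLN Cre- replicate 3 (Cd40 in spleen; Cd40 and Cd274 in the mean).

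Signs turned for Icosl between tissues after quantile normalization (0.73 in Cre+ and 1.0 in Cre-) and after a shift to 1 median (0.19 in Cre-). The remaining turns were of small differences. Under quantile normalization Cd83 in MLN was -0.11, mean Icosl -0.0091 and the Cd200 difference between tissues -0.088; under a shift to 1 median Havcr2 in spleen was 0.0047, Cd83 in MLN -0.052 and the Cd200 difference -0.067. With array weights Cd86 in spleen was 0.011, Icosl in MLN 0.068 and the Cd200 difference -0.0089. Quantile normalization within each tissue, chosen after seeing the data, gave Cd83 in MLN -0.11, mean Cd83 -0.019, mean Icosl -0.011, and differences between tissues of -0.014 for Pdcd1lg2 and -0.105 for Cd200. Omitting single arrays gave ranges across 0 for Cd86 (-0.155 to 0.144) and Havcr2 (-0.058 to 0.056) in spleen, for Cd83 (-0.096 to 0.125), Icosl (-0.113 to 0.133) and Cd276 (-0.028 to 0.029) in MLN, and for the difference between tissues of Cd83 (-0.209 to 0.011) and Cd200 (-0.151 to 0.158). Of 1220 single-gene values under alternatives, 1125 kept their direction and side of the threshold.

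With a replicate block, 0 genes were called in each genotype comparison and 8 in each tissue comparison. In Cre+ the block lost Pdcd1lg2 (adjusted p = 0.0619 in limma) and Icosl (0.0653) and called Cd200 (0.0183), and in Cre- it called Cd200 (0.0199). Same-numbered Cre+ and Cre- arrays correlated in their deviations by -0.0769, -0.00259 and -0.142 in spleen and by 0.204, 0.00149 and 0.31 in MLN. In MLN pairs 1 and 3 thus deviated together and pair 2 did not. Unlike-numbered Cre+ and Cre- arrays of MLN correlated by -0.294 to 0.139. The deviations within a group sum to 0, so these values cannot settle whether the numbers pair the samples. Pairing was not assumed in the main fit. A second probe set per gene was not run, since each gene had 1.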
